A study of Homo sapiens with 12 samples.

Results

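Genes that push epithelial cells toward or away from a mesenchymal state were followed through RNA-seq counts of the bladder cancer cell line HT1376. The 10 genes are 6 inducers of epithelial-mesenchymal transition (EMT), namely ZEB1, ZEB2, SNAI1, SNAI2, TWIST1 and TWIST2, and 4 genes that hold the epithelial state against them, namely GRHL2, OVOL1, OVOL2 and ESRP1. They were taken by name from the count table of 60666 genes, of which 38206 had at least 1 count, and each of the 10 names matched a single row. All but ESRP1, a splicing factor, are transcription factors. The lines compared were HT1376 CT, a CRISPR control line made with a guide against luciferase, which the sample labels call WT, and HT1376 FOXP3 KO, in which guides cut the gene of the transcription factor FOXP3. Both lines were left untreated or were given IFNγ (100 ng/mL, 48 hours), and every one of the 4 groups had 3 libraries, numbered 11, 12 and 13. Each line was a clone grown from a single cell, so an effect of FOXP3 cannot be told apart from a difference between clones. Nothing in the labels says that the libraries came from separate cultures, so the p-values measure the spread between these libraries, which may be technical. The study obtained these libraries to ask how FOXP3 relates to PD-L1 and which genes lie downstream of FOXP3 with IFNγ.

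EMT is the program by which epithelial cells loosen their junctions and take on migratory, mesenchymal traits. The zinc finger factors ZEB1, ZEB2, SNAI1 and SNAI2 bind E-box sequences and repress epithelial genes such as CDH1, which encodes E-cadherin, whereas TWIST1 and TWIST2 are basic helix-loop-helix factors that act in the same program. GRHL2, OVOL1 and OVOL2 maintain epithelial gene expression and are known to repress ZEB1, and ESRP1 directs the epithelial pattern of alternative splicing. MicroRNAs of the miR-200 family and miR-205 are known to silence ZEB1 and ZEB2, and the ZEB proteins in turn repress the miR-200 genes.

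The libraries held 4490684 to 39270042 counts, with a median of 15551201, and IFNγ-treated CT replicate 12 was the shallowest. Levels are given as CPM, the counts scaled to library size by the TMM method, and a library with 3 counts or fewer of a gene was taken to be at the count floor. The floor was worth 0.0793 CPM in CT replicate 13, the deepest library, and 0.692 CPM in the shallowest. FOXP3 itself was at the floor in each of the 12 libraries, with at most 3 counts, so its RNA could not be used to check the labels of the lines. The treatment was visible in both lines, since all 5 IFNγ response genes given here (IRF1, GBP1, GBP5, CXCL10 and CIITA) were higher with IFNγ by the test used throughout, the quasi-likelihood test of edgeR with Benjamini-Hochberg adjustment at 0.05. Of 12 genes expected in urothelial carcinoma cells, such as KRT5, KRT8 and GATA3, only UPK3A was at the floor in each group, joined by UPK2 in IFNγ-treated CT. The summed level of the list was 5085 to 5397 CPM in untreated CT and 4551 to 5405 CPM in untreated FOXP3 KO. With IFNγ it was 4388 to 5000 CPM in CT and 4483 to 5623 CPM in FOXP3 KO. Single genes differed, as KRT7 and TP63 were higher in untreated FOXP3 KO and EPCAM, GATA3, CDH1 and UPK1B were lower. These were 2 and 4 of 11 tested, against 14.0% and 18.2% of all genes tested. Leukocyte genes summed to at most 2.44 CPM in any library, with CD8A, MS4A1, LYZ and CD68 at the floor in each group. Fibroblast genes summed to 57.8 to 76.9 CPM in untreated CT and to 481 to 732 CPM in untreated FOXP3 KO. With IFNγ the sums were 32.3 to 40.1 CPM in CT and 450 to 667 CPM in FOXP3 KO. Of the 9 listed, 5 were higher in FOXP3 KO by the test without IFNγ, against 14.0% of all genes tested. THY1 and COL1A1 were lower, against 18.2% of all genes tested, and PDGFRA was at the floor in FOXP3 KO. In bulk RNA, a change in the number of expressing cells and a change in RNA per cell cannot be told apart.

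ESRP1 and GRHL2 had the highest mean levels of the 10 genes per exon length in each group. SNAI2 was the one inducer with a mean above that of an OVOL gene. Per kilobase of exon, the order in untreated CT was ESRP1 (42.1 ± 2.38 CPM per kb), GRHL2 (20.4 ± 1.88), SNAI2 (8.28 ± 0.638), OVOL1 (6.36 ± 1.46), OVOL2 (1.65 ± 0.160) and SNAI1 (0.804 ± 0.0778), followed by ZEB1 at 0.0922 ± 0.0159 CPM per kb (mean ± SD, n = 3 libraries). SNAI2 and OVOL1 overlapped in this group, and the other neighbours down to ZEB1 did not. In untreated FOXP3 KO, the order was ESRP1 (29.1 ± 4.18 CPM per kb), GRHL2 (21.96 ± 1.998), SNAI2 (5.91 ± 0.386), OVOL2 (5.14 ± 1.12) and OVOL1 (1.22 ± 0.325), and each remaining inducer was below 0.1 CPM per kb. SNAI2 and OVOL2 overlapped there. With IFNγ, OVOL1 and SNAI2 overlapped in CT at 6.96 ± 0.541 and 5.42 ± 1.52 CPM per kb, and so did OVOL2 and SNAI1 at 1.18 ± 0.496 and 0.684 ± 0.164. The order of the 5 most abundant genes in FOXP3 KO was the same as without IFNγ, with ESRP1 (28.2 ± 5.04) overlapping GRHL2 (23.5 ± 0.654). OVOL1 and OVOL2 stood in opposite orders in CT and FOXP3 KO. Of the 10 genes, SNAI2 and all 4 antagonists were above the floor in every library (5 genes), whereas TWIST2 was at the floor in every library.

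**Figure D1:**
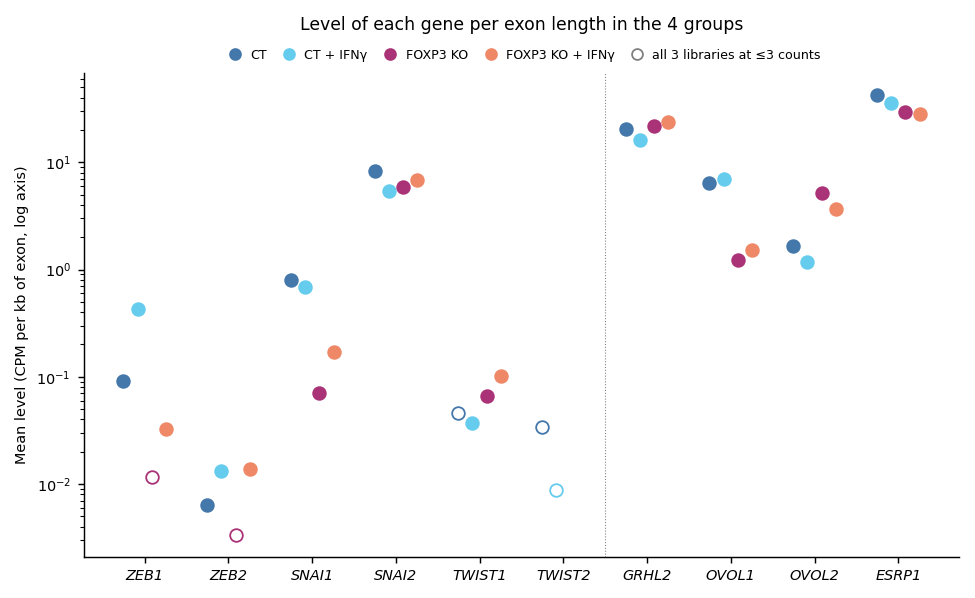
Mean level of each of the 10 genes, in CPM per kb of exon on a log axis, in the 4 groups (3 libraries each), with inducers left and antagonists right of the dotted line. Open circles mark groups in which all 3 libraries had 3 counts or fewer, and TWIST2 has no point for the FOXP3 KO groups, where it had no counts. ESRP1 and GRHL2 have the highest means in each group, and SNAI2 is the one inducer with a mean above that of an OVOL gene.

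ZEB1 was lower in FOXP3 KO than in CT, in both conditions, and was higher with IFNγ in CT. ZEB1 (ENSG00000148516) lies on chromosome 10 from 31318495 to 31529814 on the plus strand of GRCh38, the build to which all positions refer. Its counts were 16, 10 and 25 in untreated CT (0.937, 0.794 and 0.661 CPM in replicates 11, 12 and 13) and 20, 13 and 112 in IFNγ-treated CT (1.94, 3.001 and 6.26 CPM). In FOXP3 KO they were 3, 0 and 3 without IFNγ and 6, 3 and 4 with it (0.401, 0.320 and 0.130 CPM with it). Every CT library was thus above every FOXP3 KO library, and among the CT libraries every treated one was above every untreated one.

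Untreated FOXP3 KO was at the floor for ZEB1, so no fitted fold change is given. Pooling the 51 counts of untreated CT and the 6 of untreated FOXP3 KO, the level was 6.54 times lower in FOXP3 KO, with a 95% interval of 2.81 to 18.6 from counting error alone, and the edgeR adjusted p was 0.0181. That call was lost without CT replicate 11 (adjusted p = 0.0593), without CT replicate 13 (0.0514) or without FOXP3 KO replicate 11 (0.0547). Under IFNγ, ZEB1 was lower in FOXP3 KO by a log2 fold change of -3.82 (SE 0.64, edgeR adjusted p = 0.000984), and this call held without any 1 of the libraries. In CT, IFNγ gave a log2 fold change of 2.31 (SE 0.48, edgeR adjusted p = 0.0153), a rise of 4.95 times. It was weaker without treated replicate 13, at 1.63 with an adjusted p of 0.159, and without untreated replicate 13 the adjusted p was 0.0870. In FOXP3 KO the pooled ratio of treated to untreated was 2.05, with a 95% counting interval of 0.725 to 6.56 (edgeR adjusted p = 0.999). The difference between these responses, tested as an interaction of line and IFNγ over all 12 libraries, had an unadjusted edgeR p of 0.308. Its adjusted p was 0.930, so the response of ZEB1 was not shown to differ between the lines.

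**Figure D2:**
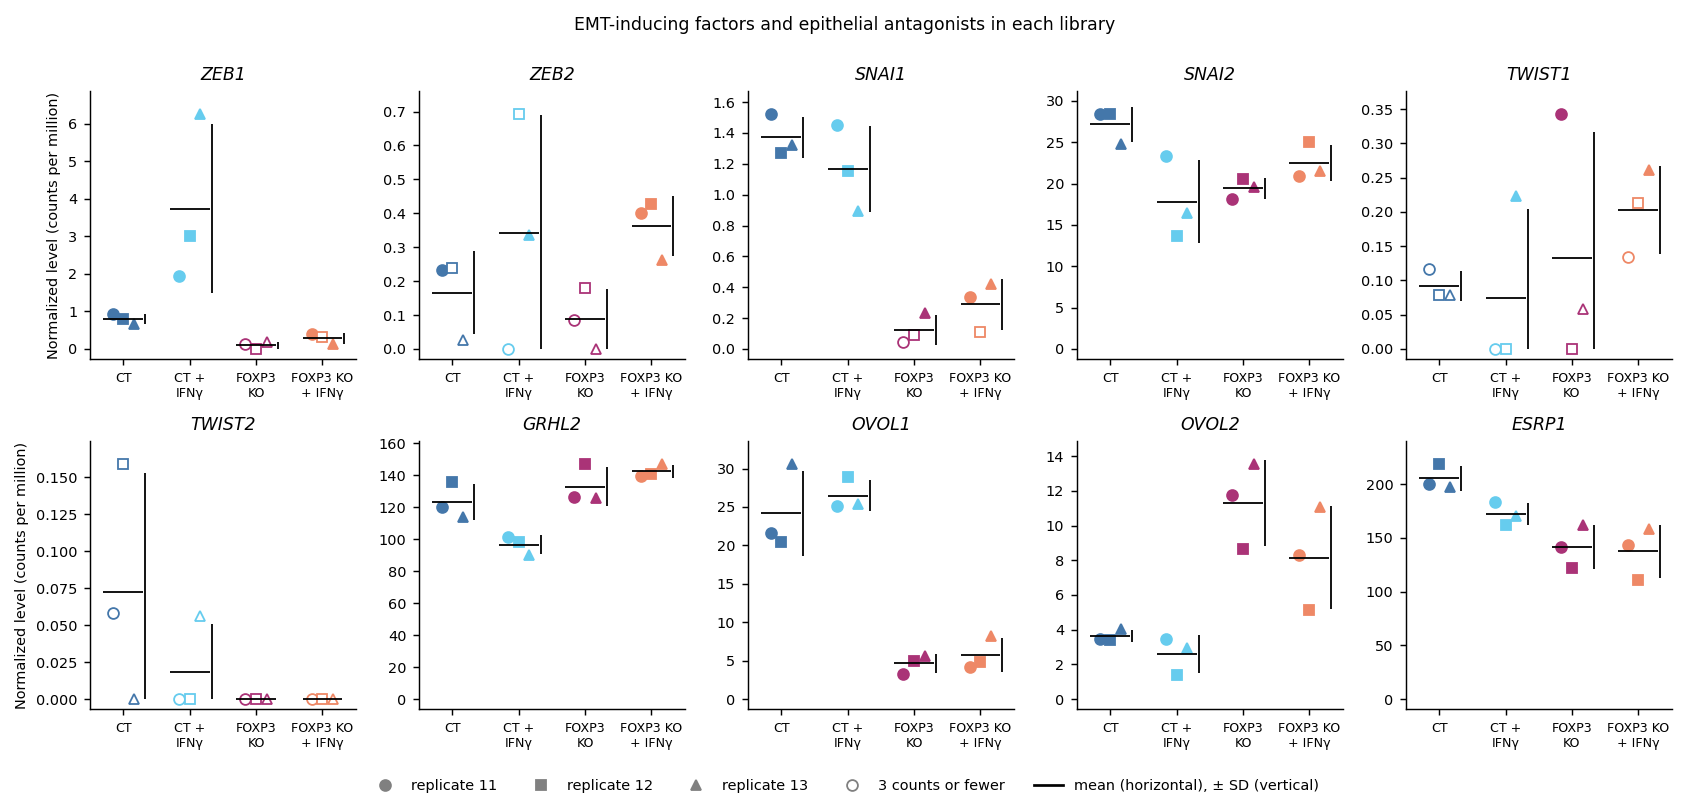
Normalized level (CPM) of each of the 10 genes in the 12 libraries, by group, on linear axes. Circles, squares and triangles are replicates 11, 12 and 13, open symbols are libraries with 3 counts or fewer, horizontal lines are group means and vertical lines span ± SD, stopping at 0. OVOL1 and OVOL2 separate the lines in opposite directions, SNAI1 is near the floor in FOXP3 KO, and ZEB1 is highest in IFNγ-treated CT, where replicate 13 reaches 6.26 CPM.

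Promoter sequence from RefSeq, on GRCh38, held 7 start windows for ZEB1, each from 250 bases before to 50 bases after a start. They were searched on both strands for the E-box CACCTG and for the forkhead motif TGTTTAC, the family to which FOXP3 belongs. These windows are shown because ZEB1 moved both with IFNγ and with the line. Of the 7, 2 held an E-box (20.6% of the 35116 promoters in the table) and 1 held the forkhead motif (3.42%), as 2 matches on opposite strands that abut. These shares are per window, so a match in any of 7 windows of a gene is less rare than they show. In the lines below the capitals mark the motif, on the plus strand of the genome, at chr10:31318352-31318373 for the E-box, whose letters read as its reverse complement, and at chr10:31321668-31321690 for the forkhead match. A match describes letters in the window and does not show that a factor binds there.
ZEB1 E-box: ggtgacagCAGGTGagggccgg
ZEB1 forkhead motif: tgtaaacaTGTTTACctgaacag

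ZEB2 (ENSG00000169554, chromosome 2 from 144364364 to 144521057, minus strand) was at or near the floor in each group. It had 4, 3 and 1 counts in untreated CT, 0, 3 and 6 in treated CT, 2, 2 and 0 in untreated FOXP3 KO and 6, 4 and 8 in treated FOXP3 KO. Only treated FOXP3 KO was above 3 counts in all 3 of its libraries. Against the 4 counts of untreated FOXP3 KO, the pooled ratio was 4.25 with a 95% counting interval of 1.40 to 17.3. Treated and untreated FOXP3 KO libraries did not overlap. The unadjusted edgeR p was 0.0846 and the edgeR adjusted p was 0.999, so the rise was not called. No comparison of groups called ZEB2, and its single RefSeq promoter window held neither motif.

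The microRNAs that silence ZEB1 and ZEB2 fall into groups by their seed, bases 2 to 8 of the mature strand, which pairs with the target. Counts per gene do not measure mature microRNAs, and only their host transcripts can be followed here. The RefSeq sequences are shown with the seed in capitals, since the 4 miR-200 family members shown, on chromosomes 1 and 12, share 2 seeds, and miR-205, made from the MIR205HG locus on chromosome 1, has its own.
miR-141-3p: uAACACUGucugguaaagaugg
miR-200a-3p: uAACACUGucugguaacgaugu
miR-200b-3p: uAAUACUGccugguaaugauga
miR-200c-3p: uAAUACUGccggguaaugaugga
miR-205-5p: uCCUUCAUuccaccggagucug

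In the canonical 3′ UTR of ZEB1, 2540 bases long, the complement of the AACACUG seed occurred 3 times, that of AAUACUG 6 times and that of CCUUCAU once. In that of ZEB2, 5370 bases long, the counts were 4, 5 and 0. The first match of each seed in ZEB1 is shown, with the match in capitals on the plus strand, at chr10:31528036-31528059, chr10:31527623-31527646 and chr10:31528072-31528095.
ZEB1, match to miR-141 and miR-200a: tcatcagaatCAGTGTTtgtgatt
ZEB1, match to miR-200b and miR-200c: tttatcttatCAGTATTatcactc
ZEB1, match to miR-205: gtggtaacatATGAAGGatatgac

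Of the host transcripts, MIR205HG (ENSG00000230937) was abundant and differed between the lines in the direction opposite to ZEB1. A link between MIR205HG and ZEB1 was not tested, and 14.0% of all genes tested were called higher in untreated FOXP3 KO. The levels of MIR205HG were 261, 270 and 204 CPM in untreated CT and 362, 338 and 318 CPM in untreated FOXP3 KO. These groups did not overlap, with a log2 fold change of 0.49 (SE 0.13, edgeR adjusted p = 0.0135). With IFNγ they were 198.4, 146 and 171 CPM in CT and 322, 315 and 317 CPM in FOXP3 KO, and the difference was 0.93 (SE 0.13, edgeR adjusted p = 0.000227). MIR200CHG, the host of miR-200c and miR-141, had 5 to 51 counts a library and was not called in any comparison. ZEB1-AS1, which is transcribed antisense to ZEB1, averaged 3.07 ± 0.889 CPM in untreated CT and 1.96 ± 0.647 CPM in untreated FOXP3 KO (SD, n = 3), a difference of -0.64 with an edgeR adjusted p of 0.193. It was not called in any other comparison either. The hairpin genes MIR200C and MIR141 and the antisense gene OVOL1-AS1 reached 7, 4 and 4 counts in their highest libraries, and the other genes looked at here did not pass the floor.

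SNAI1 (ENSG00000124216, chromosome 20 from 49982980 to 49988886, plus strand), which encodes Snail, was lower in untreated FOXP3 KO than in untreated CT. Its counts were 26, 16 and 50 in untreated CT (1.52, 1.27 and 1.32 CPM) against 1, 1 and 4 in untreated FOXP3 KO (0.0428, 0.0892 and 0.230 CPM). The fitted log2 fold change was -3.46 (SE 0.63, edgeR adjusted p = 0.00176), and the pooled level was 11.8 times lower, with a 95% counting interval of 5.22 to 32.97. The call held without any 1 of the libraries. With IFNγ the counts were 15, 5 and 16 in CT and 5, 1 and 13 in FOXP3 KO, which is 1.45, 1.15 and 0.894 CPM against 0.334, 0.107 and 0.424 CPM. These groups did not overlap either, but the difference of -1.82 (SE 0.66) missed the threshold with an edgeR adjusted p of 0.0616. It passed with 3 of the 7 alternative settings. IFNγ did not change SNAI1 beyond the spread in CT (log2 fold change -0.23, SE 0.44) or in FOXP3 KO (1.32, SE 0.95).

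SNAI2, which encodes Slug, was the one inducer expressed well above the floor in both lines. SNAI2 (ENSG00000019549) lies on chromosome 8 from 48917598 to 48921740 on the minus strand. Its levels were 28.4, 28.4 and 24.7 CPM in untreated CT, 23.3, 13.6 and 16.4 CPM in treated CT, 18.1, 20.6 and 19.5 CPM in untreated FOXP3 KO and 20.9, 25.0 and 21.5 CPM in treated FOXP3 KO. Untreated CT was above each of the other groups in all libraries except for treated FOXP3 KO replicate 12, which lay above untreated CT replicate 13. In untreated cells SNAI2 was lower in FOXP3 KO by a log2 fold change of -0.47 (SE 0.14, edgeR adjusted p = 0.0229), or 1.38 times. This call was lost without CT replicate 11 (adjusted p = 0.0983) or 12 (0.0794), without FOXP3 KO replicate 11 (0.119) or 13 (0.0773), and when all 12 libraries shared 1 fit (0.0511). Under IFNγ the difference between the lines was 0.36 (SE 0.21) with an adjusted p of 0.222.

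The change of SNAI2 with IFNγ in CT was -0.57 on the log2 scale (SE 0.19), with no overlap between treated and untreated libraries but an edgeR adjusted p of 0.126. With the replicate number as a block, which the libraries of a line shared, the same change of -0.57 had an adjusted p of 0.000237. In FOXP3 KO the change was 0.23 (SE 0.14), also without overlap and in the opposite direction, with an adjusted p of 0.999. The difference between these responses, tested as an interaction of line and IFNγ over all 12 libraries, was 0.79 (SE 0.25) with an unadjusted edgeR p of 0.00603 and an adjusted p of 0.538. Over the alternative settings of edgeR and DESeq2 the adjusted p of this interaction was 0.0819 to 0.541. The opposite responses were therefore not shown to differ after adjustment. In each library SNAI2 had at least 10.8 times the counts of SNAI1, after 0.5 was added to both counts, and the ratio was 18.3 to 21.7 in untreated CT and 75.4 to 282 in untreated FOXP3 KO.

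TWIST1 (ENSG00000122691, chromosome 7 from 19020991 to 19117636, minus strand) and TWIST2 (ENSG00000233608, chromosome 2 from 238848032 to 238910534, plus strand) were at or near the floor in each group. TWIST1 had at most 8 counts in a library, reached in untreated FOXP3 KO replicate 11 and treated FOXP3 KO replicate 13, and was above the floor in 3 of the 12 libraries. TWIST2 had 3 counts over the whole of untreated CT, 1 in treated CT and none in either FOXP3 KO group, and it did not enter the test, which needed a total of 10 counts. Its RefSeq promoter window held neither motif. TWIST1 entered the test and was not called in any comparison. At this depth a fall or a small change in either gene was not detectable.

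GRHL2 (ENSG00000083307, chromosome 8 from 101492439 to 101669726, plus strand), which encodes a grainyhead-like factor of epithelial cells, was abundant in all groups, and the lines differed under IFNγ. Its levels were 120, 136 and 114 CPM in untreated CT and 126, 147 and 126 CPM in untreated FOXP3 KO. These groups overlapped, with a log2 fold change of 0.13 (SE 0.12, edgeR adjusted p = 0.464). With IFNγ they were 102, 98.3 and 89.9 CPM in CT and 139, 141 and 147 CPM in FOXP3 KO. Here FOXP3 KO was above CT in every library, by 0.60 (SE 0.11, edgeR adjusted p = 0.00217), or 1.52 times, and the call held under each alternative and without any 1 library. The treated CT libraries were below the untreated ones, by -0.32 on the log2 scale with the replicate block (adjusted p = 0.000918), whereas without the block the change was not called. In FOXP3 KO the change with IFNγ was 0.12 (SE 0.11). The interaction was 0.44 (SE 0.16), with an unadjusted edgeR p of 0.0127 and an adjusted p of 0.679. Over the alternative settings of edgeR and DESeq2 its adjusted p was 0.113 to 0.672.

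OVOL1 and OVOL2, which encode related zinc finger repressors, differed between the lines in opposite directions. OVOL1 (ENSG00000172818, chromosome 11 from 65787063 to 65797214, plus strand) was at 21.6, 20.4 and 30.6 CPM in untreated CT and 25.2, 28.9 and 25.4 CPM in treated CT. It was at 3.26, 4.99 and 5.64 CPM in untreated FOXP3 KO and 4.15, 4.80 and 8.22 CPM in treated FOXP3 KO, so that every FOXP3 KO library was below every CT library. The log2 fold change of FOXP3 KO against CT was -2.39 (SE 0.24, edgeR adjusted p = 2.83e-05) without IFNγ and -2.14 (SE 0.25, edgeR adjusted p = 8.16e-05) with it. OVOL1 was thus 5.23 and 4.396 times lower.

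OVOL2 (ENSG00000125850, chromosome 20 from 17956979 to 18059188, minus strand) was at 3.45, 3.42 and 4.05 CPM in untreated CT and 3.49, 1.38 and 2.96 CPM in treated CT. It was at 11.8, 8.65 and 13.5 CPM in untreated FOXP3 KO and 8.29, 5.12 and 11.1 CPM in treated FOXP3 KO. Every FOXP3 KO library was above every CT library, by a log2 fold change of 1.65 (SE 0.23, edgeR adjusted p = 0.000271) without IFNγ and 1.62 (SE 0.37, edgeR adjusted p = 0.00653) with it, which is 3.14 and 3.07 times higher. Both genes kept these calls under each alternative and without any 1 library. Neither was called for IFNγ in CT or in FOXP3 KO.

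A ratio of counts within a library does not depend on how libraries are scaled to each other. The ratio of OVOL1 to OVOL2 counts, after 0.5 was added to both, was 6.21, 5.92 and 7.53 in untreated CT and 7.14, 19.3 and 8.51 in treated CT. It was 0.278, 0.579 and 0.418 in untreated FOXP3 KO and 0.502, 0.938 and 0.744 in treated FOXP3 KO. OVOL1 therefore outnumbered OVOL2 in each CT library, and OVOL2 outnumbered OVOL1 in each FOXP3 KO library. Treated FOXP3 KO replicate 12 had near equal counts, 45 of OVOL1 and 48 of OVOL2. The counts were not scaled to exon length, which is 3803 bases for OVOL1 and 2203 for OVOL2. On the log2 scale the mean ratio was 2.705 ± 0.18 in untreated CT and -1.30 ± 0.53 in untreated FOXP3 KO (SD, n = 3). The pair was singled out after its values were seen, so the ratio is given without a test.

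**Figure D3:**
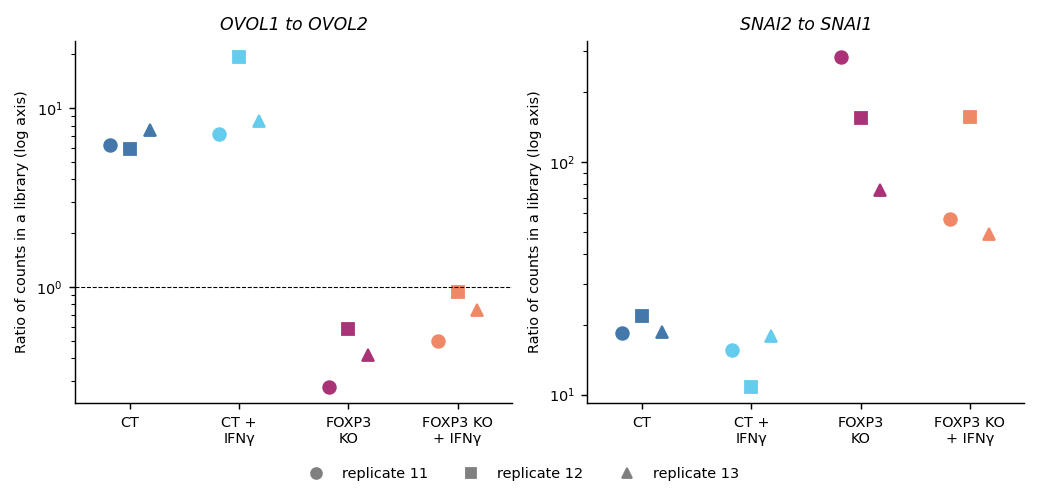
Ratio of OVOL1 to OVOL2 counts (left) and of SNAI2 to SNAI1 counts (right) within each of the 12 libraries, on log axes, with symbols for replicates 11, 12 and 13. The dashed line marks equal counts of OVOL1 and OVOL2, and all CT libraries lie above it and all FOXP3 KO libraries below it.

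ESRP1 (ENSG00000104413, chromosome 8 from 94641074 to 94707466, plus strand) was lower in untreated FOXP3 KO than in untreated CT. Its levels were 201, 219 and 197 CPM in untreated CT and 141, 122 and 162 CPM in untreated FOXP3 KO, without overlap, and the log2 fold change was -0.52 (SE 0.12, edgeR adjusted p = 0.00799), or 1.43 times lower. With IFNγ the levels were 183, 162 and 171 CPM in CT and 143, 111 and 159 CPM in FOXP3 KO. Those groups did not overlap either, but the difference of -0.28 (SE 0.14) had an edgeR adjusted p of 0.155. With the replicate block it was -0.29, with an adjusted p of 0.0449. With IFNγ, ESRP1 was lower in CT by -0.23 in the fit with the replicate block (adjusted p = 0.0137) and was not called without it. In FOXP3 KO the change was -0.03 (SE 0.14).

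Over the 9 genes that could be tested, 6 were called between the untreated lines, 5 lower in FOXP3 KO (ZEB1, SNAI1, SNAI2, OVOL1 and ESRP1) and 1 higher (OVOL2), against 32.1% of all 25320 genes tested. Under IFNγ, 4 of the 9 were called, ZEB1 and OVOL1 lower and GRHL2 and OVOL2 higher, against 28.9% of 24388 genes. The lines thus differed over a large share of the transcriptome, and the count for these few genes is to be read against that share. IFNγ in CT called ZEB1 alone, 1 of 9 against 5.35% of 24416 genes, and SNAI2, GRHL2 and ESRP1 in addition with the replicate block, which called 18.6% of all genes. IFNγ in FOXP3 KO called 0 of 9 by edgeR, against 0.982% of 24131 genes, with 0 of 9 at an unadjusted p under 0.05 and 0 by DESeq2. The interaction called 0 of 9 by edgeR, against 0.111% of 27806 genes, with 2 of 9 (SNAI2 and GRHL2) at an unadjusted p under 0.05 and 0 by DESeq2. The median log2 fold change of the 9 between the untreated lines was -0.52, or -0.47 when floor groups were assigned 3 counts a library, beside -0.02 over all genes tested. Comparisons that share a group of libraries are not independent of each other.

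**Figure D4:**
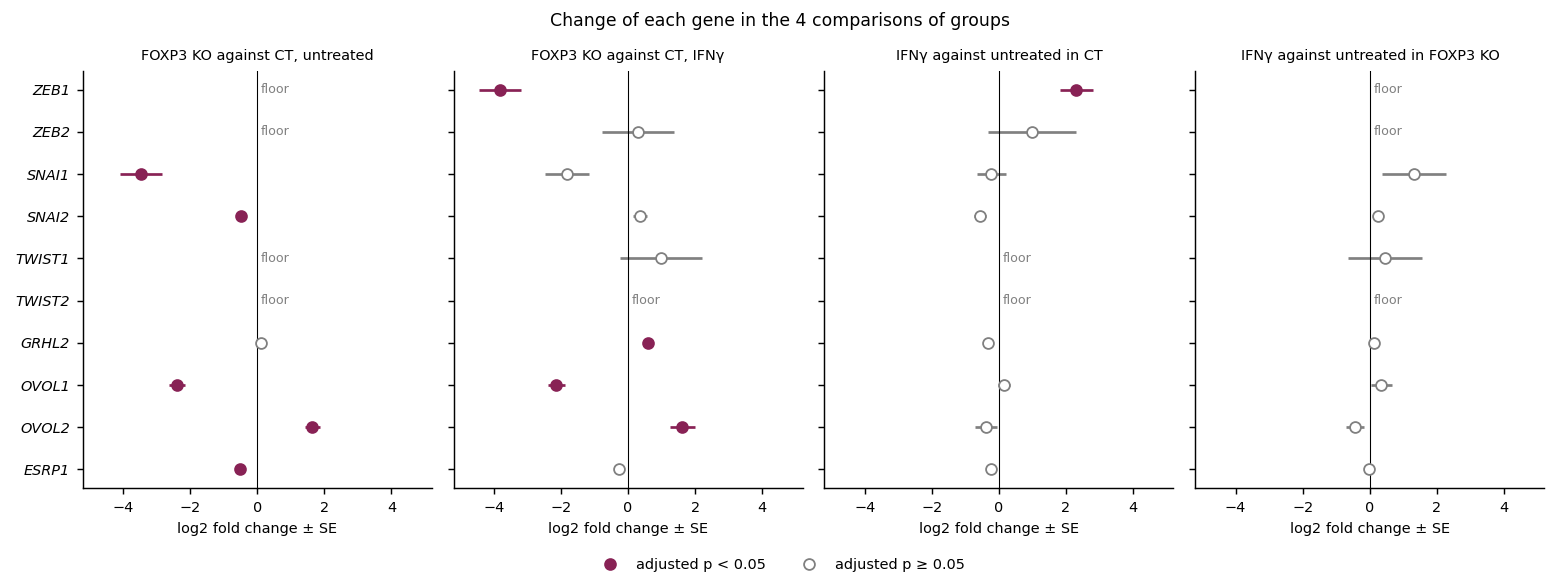
Log2 fold change (± SE) of each of the 10 genes in the 4 comparisons of groups, with filled symbols for an edgeR adjusted p under 0.05. The word floor stands where a group had 3 counts or fewer in all its libraries, so that no fitted change is shown. Between the lines OVOL1 and OVOL2 lie on opposite sides of 0 in both conditions, and in FOXP3 KO no gene is called for IFNγ.

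Other EMT-inducing transcription factors went in both directions. Of 18 listed, 12 could be tested between the untreated lines, where 4 were higher in FOXP3 KO and 4 were lower, against 14.0% and 18.2% of all genes tested. HMGA2, a chromatin protein that induces SNAI1 and TWIST1 in other cells, had the largest change, from 244 CPM in CT to 0.226 CPM in FOXP3 KO (log2 fold change -10.37, edgeR adjusted p = 1.43e-08), and SOX9 fell from 119 to 2.44 CPM (-5.68, adjusted p = 3.60e-07). KLF8, a repressor of CDH1, was higher (2.27, adjusted p = 4.50e-07), as was TCF4, an E-box binding factor (1.81, adjusted p = 8.69e-06). Under IFNγ 4 of 11 were higher and 3 were lower, against 13.2% and 15.7% of all genes.

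Of 15 other factors of epithelial identity, 12 were tested between the untreated lines, and 3 were higher in FOXP3 KO and 4 lower, against the same 14.0% and 18.2%. GRHL3, a paralog of GRHL2, was lower by -3.74 on the log2 scale (edgeR adjusted p = 2.14e-05), from 54.0 to 3.98 CPM. EHF, an ETS factor of epithelia, was lower by -3.03 (adjusted p = 1.13e-05), KLF4 by -1.27 (adjusted p = 8.07e-06) and GATA3, a luminal urothelial factor, by -0.68 (adjusted p = 0.000994). PPARG, also a luminal urothelial factor, was higher by 1.45 (adjusted p = 4.24e-05). Under IFNγ, 1 of 13 was higher and 4 were lower, against 13.2% and 15.7%.

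Genes of junctions, polarity and the epithelial surface, a group that includes targets of the ZEB and Snail repressors, were called lower in FOXP3 KO more often than higher. Of 31 tested between the untreated lines, 19 were lower, 2 were higher and 10 were not called, against 18.2% lower and 14.0% higher of all genes, and the median log2 fold change was -0.65 beside -0.02 over all genes. CDH1 was at 387, 354 and 399 CPM in CT and 208, 265 and 246 CPM in FOXP3 KO, a difference of -0.65 (SE 0.12, edgeR adjusted p = 0.00152). The tight junction polarity gene PATJ (-2.46), the desmosomal PPL (-2.05), the claudin CLDN4 (-1.98) and EPCAM (-1.92) had the largest falls without overlap, while the desmosomal DSP (1.07) and the junctional adhesion gene F11R (0.80) were higher. Under IFNγ, 15 of 31 were lower and 2 higher, against 15.7% and 13.2%. IFNγ in CT lowered 4 of 31 and raised 1, the claudin CLDN1, against 1.82% and 3.53% of all genes. CDH1 was not called, at 393 ± 5.73 against 380 ± 23.3 CPM (SD, n = 3).

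Mesenchymal genes split between the lines. Of 28 tested in untreated cells, 12 were higher in FOXP3 KO and 11 lower, against 14.0% and 18.2% of all genes, with a median log2 fold change of 0.69. Extracellular matrix genes were among both the higher and the lower ones. LUM was up by 8.65 on the log2 scale, DCN by 6.88 and COL1A2 by 3.86. The rise of FN1, which encodes fibronectin, was 1.74 (SE 0.53, edgeR adjusted p = 0.0277). FN1 was 230, 1154 and 1514 CPM in CT and 2528, 4823 and 2202 CPM in FOXP3 KO, and replicate 11 was the lowest of the CT libraries. Lower ones were the receptor AXL (-8.16), the surface marker THY1 (-5.78) and the matrix genes TNC (-5.33), COL6A3 (-3.21) and COL1A1 (-1.87). VIM, which encodes vimentin, had at most 4 counts in any library, and CDH2, which encodes N-cadherin, at most 1, so both classical mesenchymal markers were at or near the floor in all 4 groups. IFNγ in CT raised 1 of 29 mesenchymal genes, ACTA2, and lowered 2, S100A4 and COL1A1, against 3.53% and 1.82%. The fibroblast genes whose sum was higher in FOXP3 KO overlap with this list, and their part in the levels of the 10 genes was not tested.

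**Figure D5:**
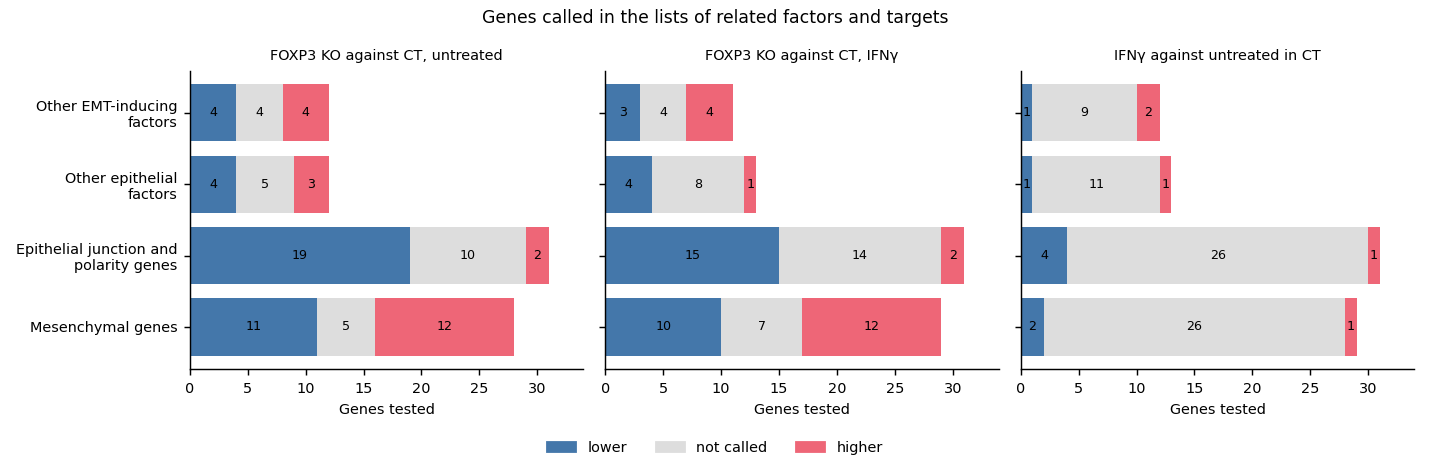
Number of genes tested that were lower (left, blue), not called (grey) or higher (right, red) by edgeR in 4 lists of related genes, for FOXP3 KO against CT without and with IFNγ and for IFNγ in CT. Between the lines 19 and 15 of 31 epithelial junction and polarity genes were lower, while mesenchymal genes split into 12 higher and 11 or 10 lower.

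The genes whose pattern over the 12 libraries was most like that of each of 8 of the 10 were found by the root mean square (RMS) difference of centred log2 CPM among 17605 genes with at least 120 counts. TWIST1 and TWIST2 were left out, as no group had more than 3 counts in all its libraries. For ZEB1, whose own RMS around its mean was 1.62, they were ISG20 (RMS difference 0.480), AL356234.2 (0.551) and TNFRSF1B (0.560). For SNAI1 they were SIK1B (0.347), MYH14 (0.354) and SH3BP1 (0.369), and for OVOL1 TIMP1 (0.189), NAPRT (0.210) and SLC25A30 (0.213), against an RMS of 1.21 and 1.20 of the genes themselves. For OVOL2, with an RMS of 0.930, they were IMPA2 (0.274), SGPP1 (0.280) and LIN28B (0.285). SNAI2 was closest to ARHGAP35 (0.162), SASH1 (0.164) and LMNA (0.169), GRHL2 to IRS2 (0.0868), TIMM29 (0.101) and DHX40 (0.105), and ESRP1 to PSME3 (0.0776), AGPAT1 (0.0864) and CCT7 (0.0884). ZEB2 had no close neighbour relative to its own RMS of 0.876, with differences of 0.505 to 0.536 that its low counts allow.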

How the data were processed

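RNA of 12 HT1376 libraries was sequenced after ribosomal RNA removal. The authors aligned the reads with STAR (2.7.11a in the submitters' processing notes) to GRCh38 with Ensembl 103, removed Mycoplasma reads with Kraken and deposited raw counts per gene from htseq-count, without normalization. Strand and multimapping settings are not given in the sources used here. Antisense exons overlap ZEB1 over 396 bases, OVOL1 over 1039, TWIST1 over 141, SNAI2 over 121 and GRHL2 over 50. Those of ZEB2-AS1 overlap ZEB2 over 1299 bases. On the same strand, 59 bases of OVOL2 lie in exons of SNX5. The counts of these genes are uncertain to that extent. GENCODE 44 gave positions and lengths. An IFNγ response gene and a promoter motif of the planned lists are not reported here.

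Groups were compared with glmQLFit and glmQLFTest of edgeR 4.0.16 in R 4.3.3 with TMM factors, on genes with at least 10 counts over the 6 libraries (the interaction over 12), after the scripts were tested on simulated data. The SE of a log2 fold change was worked back from the test, as its absolute value divided by the square root of the F statistic. Intervals and floors cover counting error only. No 2 libraries were copies. Deviations from group means correlated for equal replicate numbers within a line (r across genes of 0.139 to 0.267, or 0.272 to 0.468 over genes with at least 120 counts). They correlated less between lines (0.0407 to 0.136, or 0.0915 to 0.276 over genes with at least 120 counts). The number was therefore taken to pair libraries for IFNγ effects. The main fits, including those for IFNγ and the interaction, left the number out and so did not use this pairing. The replicate block is an alternative, given where it changes a call. Genes are not independent replicates. Alternatives were RLE factors, other filters, DESeq2 1.42.0, bias-adjusted deviance, the replicate block, 1 fit of 12 libraries and leaving out each library. The named genes are the 10, CDH1, VIM, CDH2, FN1, up to 4 called genes per direction of each list with the largest change, without overlap and above 3 counts in both groups, and 3 neighbours of each. The 10 genes and the lists were chosen with earlier results of these data known.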

Additional observations from a re-analysis of the deposited data

How the results depend on the processing

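Calls for OVOL1, OVOL2, SNAI1 and ESRP1 between the untreated lines, and for ZEB1, GRHL2, OVOL1 and OVOL2 under IFNγ, held under each alternative and each library left out. SNAI1 under IFNγ passed with filterByExpr (adjusted p = 0.0302), bias-adjusted deviance (0.0401) and all 12 libraries in 1 fit (0.0273), and ESRP1 under IFNγ with the replicate block (-0.29, 0.0449). For IFNγ in CT the count of the 10 genes called, 1, was 2 without a filter on low counts (SNAI2, adjusted p = 0.0286), 4 with the replicate block, and 0 to 2 with 1 library left out, where SNAI2 passed without treated CT replicate 11 (-0.80, 0.0271). Leaving out 1 library gave 4 to 6 such calls between the untreated lines. Over all genes, IFNγ in CT called 1307, or 2248 without a filter, 4530 with the replicate block and 761 to 1201 with 1 library left out. IFNγ in FOXP3 KO called 237, or 1334 with the block. The interaction called 31, or 294 without a filter, 160 by DESeq2, 336 with the block and 15 to 33 with 1 library left out. Between the lines, where equal numbers correlated less, the block changed no other call of the 10 genes. Directions turned only for changes that no setting called: TWIST1 (interaction of 0.28 to -0.11 with bias-adjusted deviance and to between -0.24 and 4.22 with 1 library left out, and in CT with IFNγ to -0.18 with the block), ZEB2 between the lines under IFNγ (-0.36 to 0.92 with 1 library left out), OVOL1 and ESRP1 with IFNγ in FOXP3 KO (-0.0011 to 0.51 and -0.11 to 0.089), and the interaction of OVOL1 (-0.098 to 0.45) and OVOL2 (-0.29 to 0.21). The cause was not tested. ZEB1 in FOXP3 KO, ZEB2, TWIST1 and TWIST2 were limited by depth.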
